A study of Mus musculus with 10 samples.

Results

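The 10 genes for transcription factors that mark effector, memory and exhausted states of T cells and are described here are Tbx21, Eomes, Prdm1, Id2, Bhlhe40, Batf, Tox, Tcf7, Lef1 and Id3. They were chosen by gene symbol, with earlier results of these data known. All 10 were found among the 48825 rows of the normalized count table. All 10 were also among the 15716 genes with enough signal to be tested. Bulk RNA sequencing had been run on 10 libraries that the titles call T cells, made from digested melanomas of mice that carried the BrafCA and Tyr::CreER alleles. In these mice a tamoxifen-inducible Cre under the tyrosinase promoter, which is active in melanocytes, switches on mutant Braf, and all 4 groups were of this one strain. The genotype field nevertheless reads wild type, and the tissue field names macrophages. The protocol names no step that selects T cells. Each library pooled at least 3 tumors.

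Control mice received normal chow and gave 3 libraries (Control 1, 2 and 3). The CSF1Ri group received chow with PLX6134, an inhibitor of the macrophage growth factor receptor CSF1R, at 600 mg/kg, and gave 2 libraries (CSF1Ri 1 and 6, the first with no number in its title). The CD40 group received FGK4.5, an agonistic antibody to the co-stimulatory receptor CD40, at 10 mg/kg every 3 days up to 10 times, and gave 3 libraries (CD40 1, 2 and 3). The CSF1Ri+CD40 group received both and gave 2 libraries (CSF1Ri+CD40 1 and 3). Treatment began 30 days after tumor induction and lasted 30 days or until the endpoint volume of 2 cm3. The labels give no age for the mice, beyond that they were age-matched, and do not say which groups received the vehicle. The p-values below measure the spread between these pools of tumors.

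As background, T cells that meet antigen turn on T-bet (Tbx21) and Eomes, related T-box factors that drive interferon gamma and cytotoxic genes, and Blimp-1 (Prdm1), a transcriptional repressor that promotes terminal differentiation. Id2 and Id3 block the E proteins, Bhlhe40 and Batf act in activated cells, and Tox is needed for the exhausted state that follows prolonged stimulation in tumors. Tcf7, which encodes TCF-1, and Lef1 bind the same DNA element and maintain naive, memory and stem-like cells.

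Across libraries the summed transcripts of 11 T cell markers lay between 89094 and 146966 normalized counts (read counts divided by a size factor per library, then rounded), and the summed markers of macrophages and monocytes between 536 and 2585. The T cell titles and not the tissue field thus matched the most abundant of these lists. Markers of other cells were also present. Those of mast cells and basophils summed to 559 to 1897 in control, 720 and 2233 with CSF1Ri, 2703 to 18351 with CD40, and 1971 and 10310 in the combination. Erythroid markers summed to 2940 to 15906 in control and to 13 and 501 in the combination. B cell markers lay between 4452 and 7036 and NK cell markers between 1413 and 4124. Their part in the levels below was not tested. Column totals were 11538244 to 14024851, which reflect the scaling and not the reads sequenced, so the depth is unknown. CD40 3 stood apart, with the highest level of the nuclear RNA Malat1 (95260), the lowest summed mitochondrial transcripts (123380) and the lowest Cd8a (1051) of all 10. Control 2 lay at the other end for Malat1, with the lowest level (14056). It was the lowest control for Tbx21, Eomes, Prdm1, Bhlhe40, Tox, Tcf7 and Lef1, and the highest for Batf and Id3. Differences from control for these genes therefore lean on this library. Transcripts of 4 Y-linked genes were present in Control 1 (sum 2438), CD40 2 (1569) and CD40 3 (3072), and at 0 or 1 in the other 7, so those 3 pools held male tissue. In bulk RNA, fewer cells of a type and less of a transcript per cell cannot be told apart.

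Per kb of exon, which allows levels of different genes to be compared, Id2 was the most abundant of the 10 with a mean over libraries of 12629 normalized counts per kb. It ranked 33 in the whole table by mean normalized count. Batf followed at 1479, Tcf7 at 1106 and Bhlhe40 at 738 normalized counts per kb. Id3 (234), Lef1 (196) and Tox (152) formed a middle range on this scale. Prdm1 (74.3), Tbx21 (40.7) and Eomes (29.5) were the lowest, so the genes for the T-box factors were measured with the fewest counts.

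**Figure D1:**
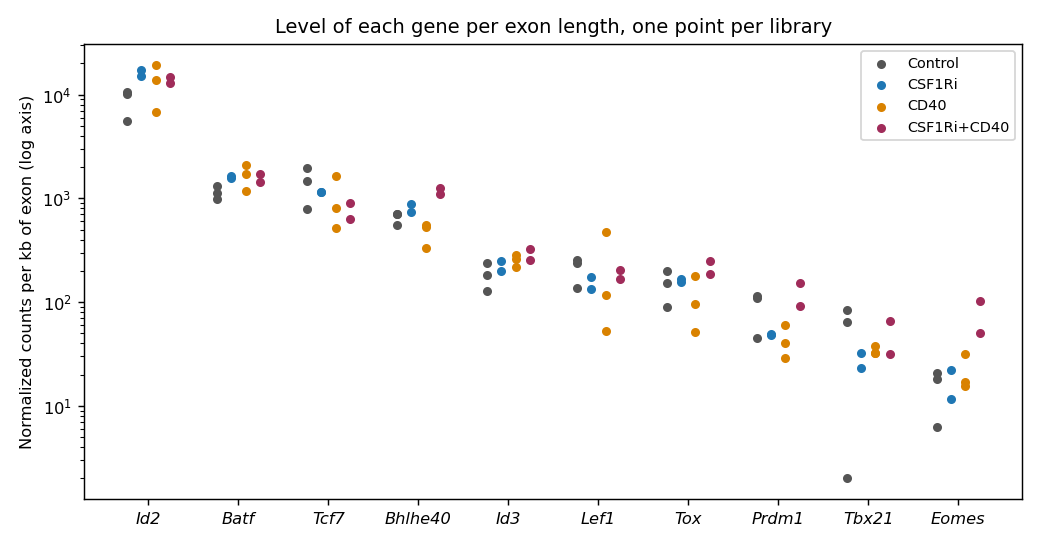
Normalized counts per kb of exon on a log axis for each of the 10 genes, 1 point per library, coloured by group; genes are in order of their mean over libraries. Id2, at a mean of 12629, lies above all others, and the single low Tbx21 point is Control 2.

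Among the effector regulators, Eomes was highest in the combination. Its normalized counts were 86, 26 and 76 in Control 1, 2 and 3, 48 and 92 in CSF1Ri 1 and 6, 65, 70 and 131 in CD40 1, 2 and 3, and 208 and 425 in CSF1Ri+CD40 1 and 3. Both combination libraries thus lay above the other 8, while the other 3 groups overlapped one another. The group means were 316.5 ± 153 (SD, n = 2) in the combination, 88.7 ± 36.7 (n = 3) with CD40, 70.0 ± 31.1 (n = 2) with CSF1Ri and 62.7 ± 32.1 (n = 3) in control. On the log2 scale, with 1 added to each value, Eomes was 2.40 higher in the combination than in control (SE 0.71, 95% interval 0.85 to 3.95), which limma placed at an unadjusted p of 0.0057 and an adjusted p of 0.74 over the 15716 genes. Against CD40 alone the log2 difference was 1.81 (limma, adjusted p = 0.97), and against CSF1Ri alone it was 2.14 (limma, adjusted p = 1). Averaged over both levels of the inhibitor, the CD40 effect on Eomes was 1.37 (limma, unadjusted p = 0.019, adjusted p = 1.0). This average joins the 2.14 under the inhibitor with 0.59 for CD40 alone over control (limma, unadjusted p = 0.37, adjusted p = 0.90). The latter was 0.06 without Control 2. The interaction of both treatments was 1.55 (95% interval -0.64 to 3.75, limma, unadjusted p = 0.15, adjusted p = 0.99). Cd8a, a marker of cytotoxic T cells, read 3785 and 4947 in the combination libraries against 1475 to 1911 in control, 3223 and 3685 under the inhibitor and 1051 to 3949 under the antibody. The part of CD8 T cell numbers in the Eomes difference was not tested.

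Tbx21, the other T-box factor, showed no such pattern. It read 211, 5 and 159 normalized counts in Control 1, 2 and 3, 58 and 80 under CSF1Ri, 95, 80 and 81 under CD40, and 164 and 79 in the combination. Control 2, at 5, was the lowest of the 10 libraries and Control 1, at 211, the highest, so the controls spanned all other groups. The means, from 125 ± 107 (SD, n = 3) in control to 69.0 ± 15.6 (n = 2) with CSF1Ri, differed by less than the SD of the controls. The log2 differences from control were 0.23 for CSF1Ri, 0.55 for CD40 and 0.97 for the combination, although control had the highest mean, because the log scale weights Control 2. Without Control 2 all of them turned negative, to -1.41, -1.10 and -0.68.

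Prdm1 was lower with either treatment alone than in the combination. Its normalized counts were 616, 251 and 645 in Control 1, 2 and 3, 268 and 278 under CSF1Ri, 162, 225 and 337 under CD40, and 517 and 846 in the combination. Both combination libraries lay above all 5 libraries of the single treatments, and within the range of the controls or above it. Control 2 read like the single treatments, and the other controls like the combination. The log2 difference from control was -1.004 with CD40 (SE 0.43; limma, unadjusted p = 0.038, adjusted p = 0.77), -0.76 with CSF1Ri and 0.51 with the combination. Control 2 weighed on the last of these, which was 0.07 without it, and 0.16 without CSF1Ri+CD40 3. The CSF1Ri value without Control 2 was -1.20. The combination exceeded CD40 alone by 1.51 (SE 0.48; limma, unadjusted p = 0.0086, adjusted p = 0.86) and CSF1Ri alone by 1.27 (limma, adjusted p = 1). The interaction, the departure of the combination from the sum of both single effects, was 2.28 for Prdm1 on the log2 scale (95% interval 0.79 to 3.76; limma, unadjusted p = 0.0060, adjusted p = 0.99).

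Id2, which supports effector differentiation by restraining E proteins, was lowest in Control 1 (13602 normalized counts) and CD40 3 (16661). The other controls read 24509 and 25708, CSF1Ri 1 and 6 read 36967 and 41937, CD40 1 and 2 read 33452 and 47426, and the combination libraries read 35911 and 31727. All libraries of CSF1Ri and of the combination lay above all controls, and those of CD40 did not, since CD40 3 fell among the controls. The log2 difference from control was 0.94 for CSF1Ri (SE 0.39; limma, unadjusted p = 0.033, adjusted p = 1), 0.54 for CD40 and 0.72 for the combination. The CD40 value became 0.96 without CD40 3, 0.21 without CD40 2 and 0.25 without Control 1, and that of the combination 0.43 without Control 1.

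**Figure D2:**
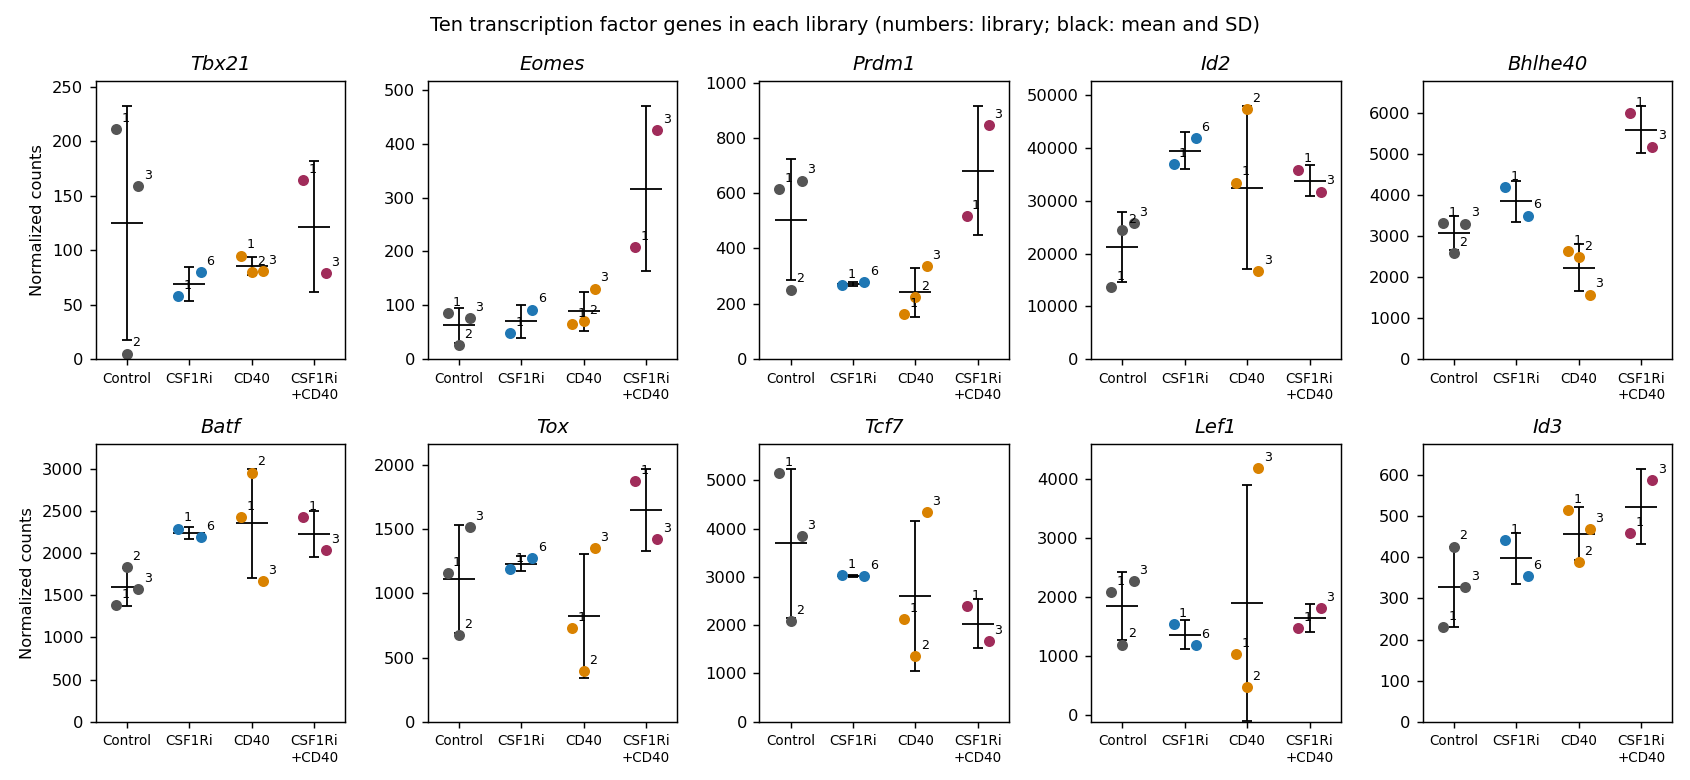
Normalized counts of each of the 10 genes by group, 1 point per library with its number beside it; black bars give the group mean and its SD, on linear axes. Eomes and Bhlhe40 are the panels in which both combination libraries lie above every other library.

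Bhlhe40, a repressor of the bHLH family that sustains cytokine production in activated T cells, was the member with the smallest p-values. It read 3305, 2579 and 3297 normalized counts in Control 1, 2 and 3, 4189 and 3491 under CSF1Ri, 2626, 2485 and 1571 under CD40, and 5987 and 5175 in the combination. In the deposited scaling, every library given the inhibitor thus lay above every library that was not. The share of all genes that separate in this way was not computed. The pools with male tissue, Control 1, CD40 2 and CD40 3, were all among the libraries without the inhibitor. The inhibitor and the sex of the pools thus partly coincide. The combination (5581 ± 574, SD, n = 2) did not overlap CSF1Ri (3840 ± 494, n = 2), CSF1Ri did not overlap control (3060 ± 417, n = 3), and control overlapped CD40 (2227 ± 573, n = 3). The log2 difference between the combination and CD40 was 1.36 (SE 0.25, 95% interval 0.80 to 1.92; limma, unadjusted p = 0.00021, adjusted p = 0.54). Averaged over both levels of CD40, the CSF1Ri effect was 0.84 (SE 0.18, 95% interval 0.45 to 1.24; limma, unadjusted p = 0.00059, adjusted p = 0.78). The combination exceeded control by 0.87 (limma, unadjusted p = 0.0054, adjusted p = 0.74), and CD40 alone lay below it (log2 difference -0.48, or -0.25 without CD40 3; limma, adjusted p = 0.77). The interaction was 1.03 (limma, unadjusted p = 0.015, adjusted p = 0.99). The difference between CSF1Ri and control, 0.33, became -0.06 when libraries were rescaled to their summed CD3 transcripts. On that scale the separation by inhibitor was lost. Bhlhe40 was 4.94% of summed CD3 in CSF1Ri 6, below Control 1 (7.48%) and Control 3 (6.01%).

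Batf, an AP-1 factor that works with IRF4 and Jun proteins, varied least, with a highest library 2.13-fold above the lowest. It read 1384, 1835 and 1572 normalized counts in Control 1, 2 and 3, 2291 and 2192 under CSF1Ri, 2431, 2954 and 1670 under CD40, and 2424 and 2038 in the combination. The libraries of CSF1Ri and of the combination lay above all controls, and CD40 3 was again among the controls. The 3 treated groups had like log2 differences from control, 0.50 for CSF1Ri, 0.53 for CD40 (SE 0.24; limma, unadjusted p = 0.045, adjusted p = 0.77) and 0.49 for the combination. Their means of 2242, 2352 and 2231 did not differ beyond the spread. Rescaled to summed CD3 transcripts, the same differences were 0.11, 0.25 and 0.14. The CD40 value without CD40 2 was 0.34.

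Tox, the regulator of exhaustion, read 1158, 676 and 1515 normalized counts in Control 1, 2 and 3, 1191 and 1274 under CSF1Ri, 732, 394 and 1351 under CD40, and 1877 and 1425 in the combination. The combination lay above both CSF1Ri libraries and all 3 CD40 libraries and overlapped control through Control 3. CD40 had the lowest mean (826 ± 485, SD, n = 3) and the widest spread, from 394 in CD40 2 to 1351 in CD40 3. The combination exceeded CD40 by 1.16 on the log2 scale (SE 0.47; limma, unadjusted p = 0.029, adjusted p = 0.97). Its difference from control was 0.63 (95% interval -0.39 to 1.64), an interval that includes 0, and 0.30 without Control 2.

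Of the memory-associated factors, Tcf7 was highest in Control 1 and lowest in CD40 2. It read 5153, 2088 and 3847 normalized counts in Control 1, 2 and 3, 3031 and 3011 under CSF1Ri, 2132, 1353 and 4349 under CD40, and 2390 and 1674 in the combination. The combination lay below both CSF1Ri libraries but overlapped control and CD40. Its mean of 2032 ± 506 (SD, n = 2) was the lowest of the 4 groups, against 3696 ± 1538 (n = 3) in control. The log2 differences from control were -0.20 for CSF1Ri, -0.57 for CD40 and -0.79 for the combination (SE 0.46; limma, unadjusted p = 0.11, adjusted p = 0.93). The CD40 value was -0.18 without CD40 2, -1.03 without CD40 3, -0.29 without Control 1 and -0.94 without Control 2. That of CSF1Ri was 0.092 without Control 1.

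Lef1, a relative of Tcf7, had its extremes within one group. It read 2081, 1193 and 2265 normalized counts in Control 1, 2 and 3, 1538 and 1183 under CSF1Ri, 1036, 467 and 4182 under CD40, and 1468 and 1805 in the combination. CD40 2 was the lowest and CD40 3 the highest of all libraries, 8.96-fold apart, so all groups lay inside the range of CD40. The log2 differences from control were -0.40, -0.49 and -0.13 for CSF1Ri, CD40 and the combination. The CD40 value became 0.23 without CD40 2 and -1.35 without CD40 3.

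Id3, which is linked to memory and follicular T cells, had a narrow range, with a highest library 2.56-fold above the lowest. It read 230, 426 and 327 normalized counts in Control 1, 2 and 3, 442 and 354 under CSF1Ri, 515, 388 and 469 under CD40, and 459 and 588 in the combination. The combination lay above all controls and above both CSF1Ri libraries, and overlapped CD40. Its log2 difference from control was 0.71 (SE 0.35; limma, unadjusted p = 0.067, adjusted p = 0.93). Neighbours in the order combination, CD40, CSF1Ri, control all overlapped.

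**Figure D3:**
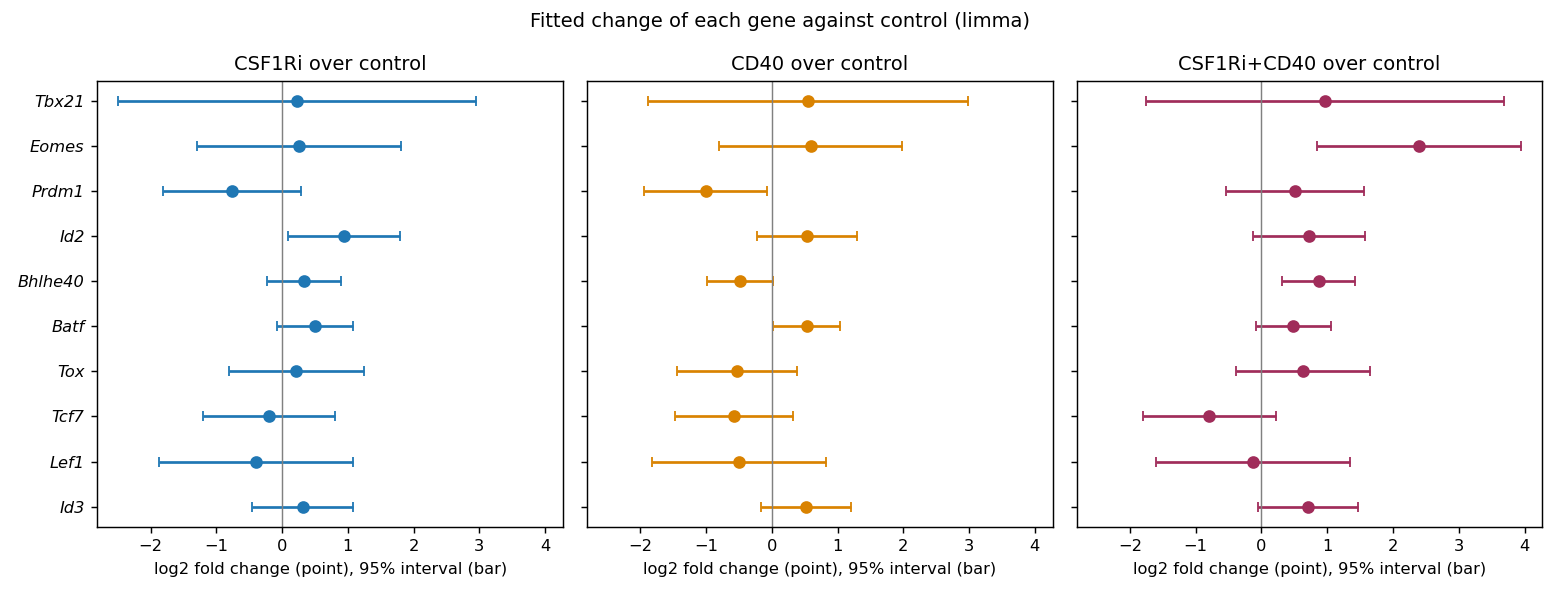
Log2 fold changes against control with 95% intervals from limma for the 10 genes, with a panel each for CSF1Ri, CD40 and CSF1Ri+CD40. The intervals that exclude 0 are those of Id2 for CSF1Ri, of Prdm1 and Batf for CD40, and of Eomes and Bhlhe40 for the combination, and none passed after adjustment.

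No member passed an adjusted p of 0.05 in any of the 8 comparisons fitted with limma. The same threshold was passed by 1 of the 15716 genes with CSF1Ri and by 1 with CD40 over control (0.00636% each), and by 0 (0%) in each of the other 6 comparisons. For CSF1Ri over control, 1 of 10 members (Id2) had an unadjusted p under 0.05, against 4.08% of all genes. For CD40 over control there were 2 of 10 (Prdm1 lower and Batf higher, against 6.39%), and for the combination over control 2 of 10 (Eomes and Bhlhe40 higher, against 5.4%). For the combination over CD40 there were 4 of 10, Eomes, Prdm1, Bhlhe40 and Tox, all higher, against 4.96% of all genes. For the combination over CSF1Ri there were 2 of 10 (Eomes and Prdm1, against 3.58%), and for the interaction 2 of 10 (Prdm1 and Bhlhe40, against 4.17%). The averaged effects had 1 of 10 each, Bhlhe40 for CSF1Ri (against 4.6%) and Eomes for CD40 (against 4.67%). On the CD3 scale, Bhlhe40 took the place of Batf for CD40 over control, so that Bhlhe40 and Prdm1 were lower (7.73% of all genes had such a p). Tox was lost for the combination over CD40, which left 3 of 10 (4.16%), and Bhlhe40 took the place of Prdm1 for the combination over CSF1Ri (2.83%). These comparisons share libraries, so their counts do not support one another.

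Counted by groups that do not overlap, 3 of 10 members were higher with CSF1Ri than in control (Id2, Bhlhe40 and Batf), where 11.6% of all genes were, and 0 were lower (10.3% of all genes). With CD40, 0 were higher (4.19%) and 0 lower (4.91%). In the combination, 5 of 10 were higher than control (Eomes, Id2, Bhlhe40, Batf and Id3, against 10.6% of all genes) and 0 lower (9.6%). Against CD40, the combination had 4 of 10 higher (Eomes, Prdm1, Bhlhe40 and Tox, against 8.19%) and 0 lower (6.84%). Against CSF1Ri, it had 5 of 10 higher (Eomes, Prdm1, Bhlhe40, Tox and Id3, against 16.5%) and 2 lower (Id2 and Tcf7, against 16.8%). On the CD3 scale these counts changed. For CSF1Ri over control, Id2 alone was higher (3.93% of all genes) and Prdm1 lower (24.8%). For CD40 over control, Batf was higher (1.81%) and Bhlhe40 lower (8.24%). For the combination over control, 3 of 10 were higher (Eomes, Id2 and Bhlhe40, against 4.39%) and Tcf7 lower (21.5%). Against CD40 the combination had 3 of 10 higher (Eomes, Prdm1 and Bhlhe40, against 5.99%) and 0 lower (9.61%). Against CSF1Ri it had 5 of 10 higher (Tbx21, Eomes, Prdm1, Bhlhe40 and Tox, against 17.9%) and 2 lower (Id2 and Tcf7, against 14.7%). In the deposited scaling, both combination libraries lay above all other libraries for Eomes and Bhlhe40, 2 of 10 members, and for 2.31% of all genes.

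By direction alone, 8 of 10 members were above control in the combination, with a median log2 difference of 0.67 where all genes had a median of 0.00 to 2 decimals. With CSF1Ri 7 of 10 were above control (median 0.24, all genes 0.02) and with CD40 5 of 10 (median 0.01, all genes -0.01). Rescaling each library to its summed CD3 transcripts, Cd3d, Cd3e, Cd3g and Cd247, moved the median of all genes to -0.36 for CSF1Ri, -0.28 for CD40 and -0.34 for the combination. Under that scaling 2 of 10 members were above control with CSF1Ri, as Tbx21, Eomes, Bhlhe40, Tox and Id3 turned negative. The counts stayed at 5 of 10 for CD40 and 8 of 10 for the combination, with member medians of -0.26 and 0.32.

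Id2 and Batf went with the amount of CD3 transcript in a library. Summed CD3 was lowest in Control 1 (44196) and CD40 3 (47517), 52525 and 54862 in the other controls, and 61565 to 74024 in the remaining 6 libraries. Over the 10 libraries the log2 level correlated with it at r = 0.98 for Id2 and r = 0.90 for Batf, and inversely for Tcf7 (r = -0.75) and Lef1 (r = -0.74). These correlations are descriptions over libraries that share one scaling, and the other 6 members lay between -0.35 and 0.43. As a percentage of summed CD3, Batf was 3.16 ± 0.32% (SD, n = 3) in control, 3.41 ± 0.44% (n = 2) with CSF1Ri, 3.76 ± 0.24% (n = 3) with CD40 and 3.49 ± 0.41% (n = 2) in the combination. On that scale the range of Batf over libraries narrowed from 2.13-fold to 1.39-fold and that of Id2 from 3.49-fold to 2.08-fold, while that of Lef1 widened from 8.96-fold to 14.0-fold. Malat1 correlated with Lef1 at r = 0.62, Tbx21 at 0.50, Id2 at -0.48, Tcf7 at 0.46, Batf at -0.45, Prdm1 at 0.43 and Eomes at 0.40. For Bhlhe40, Tox and Id3 r was -0.33, 0.28 and -0.09. The part of T cell content or RNA quality in these differences was not tested.

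**Figure D4:**
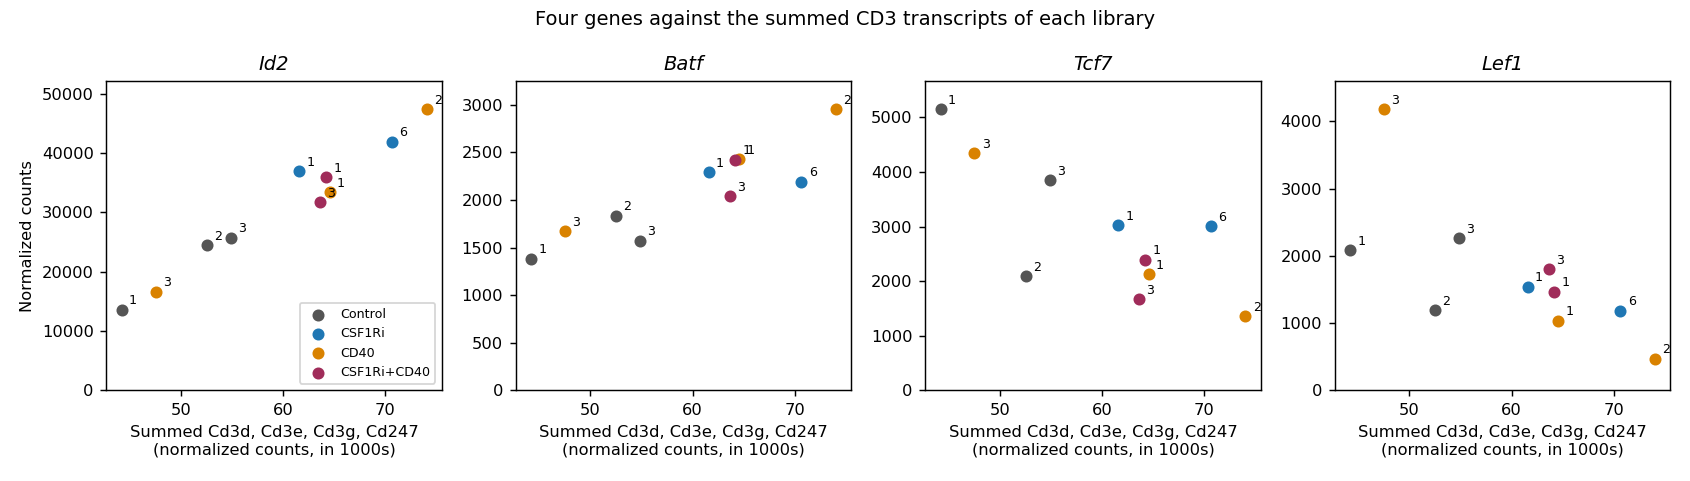
Normalized counts of Id2, Batf, Tcf7 and Lef1 against the summed Cd3d, Cd3e, Cd3g and Cd247 of each library, in normalized counts (the axis is marked in units of a kilo-count); points are libraries, coloured by group, with their numbers. Id2 and Batf lie along a rising line and Tcf7 and Lef1 along a falling one, with Control 1 and CD40 3 at the low end of CD3.

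Tcf7 and Lef1, the TCF/LEF pair, correlated over the libraries, but the call lay close to the threshold. Of 6 member pairs compared over the 10 libraries, theirs was the one with an adjusted p under 0.05 for Pearson's r (r = 0.77, permutation p = 0.0080, adjusted p = 0.048). With 1 library left out, the adjusted p was above 0.05 in 8 of 10 cases, up to 0.31 without CD40 2. Spearman's rho was 0.72 (permutation p = 0.023, adjusted p = 0.14). Without CD40 2 and Control 1, the libraries farthest from the median of Tcf7, r was 0.66, and among the 7 libraries without Y-linked transcripts it was 0.36 (adjusted p = 0.72 by exact permutation). The correlation of their deviations from the group means was 0.86. The other pairs did not pass: r was 0.55 for Tbx21 and Eomes (permutation p = 0.12, adjusted p = 0.25; rho 0.39, p = 0.26), 0.56 for Tox and Tcf7 (permutation p = 0.091, adjusted p = 0.25; rho 0.35, p = 0.33) and 0.43 for Id2 and Id3 (permutation p = 0.21, adjusted p = 0.32; rho 0.07, p = 0.86). For Prdm1 and Tcf7 r was 0.30 (permutation p = 0.40, adjusted p = 0.49; rho 0.38, p = 0.28), and for Batf and Bhlhe40 it was 0.20 (permutation p = 0.58, adjusted p = 0.58; rho 0.09, p = 0.81). Without the 2 farthest libraries of each pair, these 5 values became 0.22, 0.07, -0.05, 0.63 and 0.53 in the same order. For deviations from the group means they were 0.66, 0.92, 0.17, 0.61 and 0.57. That of Tox and Tcf7 was thus above the 0.86 of Tcf7 and Lef1.

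The ratio of Tcf7 to Tox per kb of exon separated the combination from the rest. It was 3.69 and 3.41 in the combination libraries, 12.9, 8.95 and 7.36 in Control 1, 2 and 3, 7.38 and 6.85 with CSF1Ri, and 8.44, 9.95 and 9.33 with CD40. Tcf7 to Prdm1 was 9.83 and 4.21 in the combination and 12.7 to 28.0 in the other 8 libraries. In 4 other ratios that were computed, Tcf7 to Lef1, Tcf7 to Id2, Id2 to Id3 and Tbx21 to Eomes, the combination overlapped other groups. Tbx21 to Eomes was 1.32 and 0.310 in the combination libraries, 4.10, 0.321 and 3.49 in Control 1, 2 and 3, and 1.03 to 2.44 in the single treatments. The ratios were computed after the levels had been seen and carry no test.

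Because Tcf7 and Lef1 encode factors that recognise the same element, the sequences before their annotated starts were searched for its core, spelled CTTTGA or CTTTGT, on both strands. RefSeq windows (GRCm38.p6, 250 bases before a start) were matched for 8 of the 10 members, with several starts for Lef1 and Tcf7. The cores CTTTGA and CTTTGT were in 13.8% and 16.5% of all 32851 such windows. Among members they were found in 1 window, at an internal start of Lef1, and in none of the Tcf7 windows. Another internal start of Lef1, with the window chr3:131112541-131112790, held no core. The first start and the internal start with the cores are shown because they differ in this respect. The cores are in capitals and the + strand is written 5′ to 3′. The first is chr3:131110047-131110296 and the internal one with the cores chr3:131156044-131156293.
Lef1, first start: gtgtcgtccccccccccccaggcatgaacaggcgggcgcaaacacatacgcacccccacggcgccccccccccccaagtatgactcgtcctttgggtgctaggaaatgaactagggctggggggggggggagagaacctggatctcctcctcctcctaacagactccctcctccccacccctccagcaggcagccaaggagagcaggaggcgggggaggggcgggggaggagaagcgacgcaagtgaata
Lef1, internal start: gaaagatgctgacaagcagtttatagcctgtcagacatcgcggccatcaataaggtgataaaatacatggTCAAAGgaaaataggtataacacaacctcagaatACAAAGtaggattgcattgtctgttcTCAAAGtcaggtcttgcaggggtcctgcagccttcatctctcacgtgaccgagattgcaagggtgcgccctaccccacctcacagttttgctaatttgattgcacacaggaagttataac
All 3 matches read as the reverse complement on this strand. The windows are 66.4% and 44.8% G and C. The internal window also holds CACGTG, the palindromic E-box form bound by Bhlhe40, which 6.02% of all windows hold. A TGANTCA match, the AP-1 form that Batf uses with Jun proteins, lay in the Prdm1 window and in 6.75% of all windows. The counts are per gene, so the data do not show which start was used.

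Genes that T-bet and Eomes are known to activate were mostly higher in the combination. Of 16 such genes 15 were above control, with a median log2 difference of 1.30, and 10 had an unadjusted p under 0.05 (5.4% of all genes did), but 0 passed after adjustment. With CSF1Ri alone 4 were higher and 1 lower at that p (4.08% of all genes), and with CD40 alone 3 higher and 2 lower (6.39%). The CD8 markers went the same way: Cd8b1 read 2613 to 2780 normalized counts in control, 5421 and 5102 under CSF1Ri, 1577 to 5380 under CD40 and 5296 and 6766 in the combination, and Cd8a is given above. Their part in this list was not tested. Gzmk, a granzyme, read 2491 and 2651 normalized counts in the combination where the controls read 55 to 338, the CSF1Ri libraries 442 and 345 and the CD40 libraries 217 to 710 (log2 difference from control 4.14, SE 0.69; limma, adjusted p = 0.22). Prf1, perforin, was 2.11 higher (limma, adjusted p = 0.48) and Il2rb, a chain of the IL-2 receptor, 0.85 higher (limma, adjusted p = 0.74). With CSF1Ri alone 14 of 16 were above control (median 0.75) and with CD40 alone 10 of 16 (median 0.24). On the CD3 scale these counts were 14 of 16 for the combination, 11 for CSF1Ri and 8 for CD40.

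Of 13 exhaustion and inhibitory receptors, whose expression is associated with Tox, 12 were above control in the combination (median 1.00, 5 at an unadjusted p under 0.05 where 5.4% of all genes were, 0 after adjustment). Entpd1 (CD39) was 2.15 higher, Cd38 2.33 and Lag3 1.94 (limma, adjusted p = 0.22, 0.22 and 0.48). With CSF1Ri alone 12 of 13 were also above control (median 1.00, 6 at that p against 4.08% of all genes), where Tox was 0.22 higher. With CD40 alone 11 of 13 were (median 0.47, 1 at that p against 6.39%), where Tox was lower (-0.53). On the CD3 scale 10, 11 and 8 of 13 receptors were above control for the combination, CSF1Ri and CD40. Of 16 naive and stem-like genes, which go with Tcf7 and Lef1, 7 were above and 9 below control in the combination (median -0.21), and 4 were above on the CD3 scale. Ly6c2 was 1.11 higher and Dapl1 lower (log2 difference -1.08; limma, adjusted p = 0.74 and 0.89). In the type 17 list, 9 of 10 genes were below control with CD40, 7 of them at an unadjusted p under 0.05 (6.39% of all genes in either direction). With CSF1Ri 7 of 10 were below, 3 at that p (4.08% of all genes in either direction). With the combination 7 of 10 were below, 2 at that p (5.4%). The cytokine gene Il17a of this list fell by 4.10 with CD40 (SE 0.41; limma, adjusted p = 0.0088). That was the 1 result of a listed gene that passed in any comparison against control. In the combination its log2 difference from control was -1.75 (limma, adjusted p = 0.67). In the regulatory T cell list, 10 of 10 genes were above control in the combination, with a median of 0.30 and Tnfrsf9 at 0.81 (limma, adjusted p = 0.78), but 3 of 10 were on the CD3 scale.

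Among partners, the E proteins Tcf3, Tcf4 and Tcf12, which Id2 and Id3 bind, were below control in all 3 treated groups, with a median log2 difference of -0.60 for CSF1Ri, -0.80 for CD40 and -0.76 for the combination, and with 0 at an unadjusted p under 0.05. The fitted log2 differences of the relatives Id1 and Bhlhe41 were also below 0 in each treated group (medians -2.12, -2.16 and -1.92), with 0 at an unadjusted p under 0.05. Both had low counts, and CD40 overlapped control for both. Id1 read 51, 28 and 30 in control, 4 and 2 under CSF1Ri, 31, 35 and 0 under CD40, and 18 and 0 in the combination. Bhlhe41 read 60, 38 and 147 in control, 59 and 19 under CSF1Ri, 79, 1 and 10 under CD40, and 12 and 127 in the combination. Of 8 BATF partners and relatives 4 were below control with CSF1Ri, 6 with CD40 and 6 with the combination. Junb, which pairs with Batf, had log2 differences of -1.24, -1.20 and -1.01 for CSF1Ri, CD40 and the combination, with adjusted p = 1, 0.72 and 0.91 in limma. Irf8 was 1.29 higher in the combination (limma, adjusted p = 0.90). Junb is also an immediate early gene and belongs to a list of 9 dissociation and immediate early genes. With Junb in it, that list summed to between 10944 and 13565 normalized counts in control, 7893 and 8279 with CSF1Ri, 3342 to 11044 with CD40 and 9573 and 9583 in the combination. Junb alone read 5280, 3646 and 2066 in Control 1, 2 and 3, and 1486 and 1414 under CSF1Ri. It read 1505, 2583 and 852 under CD40, and 1773 and 1614 in the combination, so its own change is part of these sums. Tox2, a relative of Tox, read 80, 20 and 83 in control, 32 and 0 under CSF1Ri, 65, 11 and 16 under CD40, and 114 and 89 in the combination. The TCF/LEF partners had 2 of 6 above control in the combination, and their co-repressor Tle4 was lower with CSF1Ri (log2 difference -1.53; limma, adjusted p = 1). Of the 24 other regulators of T cell state tested, 12 were above control in the combination, 10 with CSF1Ri and 8 with CD40, and on the CD3 scale 5, 7 and 3. Nr4a1, induced by T cell receptor signals, was lower with CSF1Ri (log2 difference -1.42) and with CD40 (-1.06), with adjusted p = 1 and 0.69 in limma. Stat5b was lower in the combination (log2 difference -1.20; limma, adjusted p = 0.76).

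The genes most like each member over the 10 libraries were taken from 8843 other genes with a mean of at least 100 normalized counts, by Pearson's r of log2 levels. They were Sp110 for Eomes (r = 0.90), Cotl1 for Tbx21 (r = 0.96), Atp2a2 for Prdm1 (r = 0.94), Ola1 for Id2 (r = 0.98) and 0610040F04Rik for Bhlhe40 (r = 0.98). For the others they were Ly6a for Batf (r = 0.98), Gm11802 for Tox (r = 0.95), Nfatc2 for Tcf7 (r = 0.97), Rbm26 for Lef1 (r = 0.97) and Fra10ac1 for Id3 (r = 0.90). The next 2 were Btbd9 and Rabl3 for Eomes, Cpeb4 and Gpx7 for Tbx21, Gm16033 and Gm11583 for Prdm1, H2-T22 and Tlcd1 for Id2, and Nde1 and Trav1 for Bhlhe40. For the rest they were Ctss and Rpl37 for Batf, Lpp and Rrm2 for Tox, Trim23 and Sms for Tcf7, Srsf10 and Clk1 for Lef1, and 2610008E11Rik and Tmem177 for Id3. No member was among the 3 genes most like another member. For Tbx21 and Cotl1 rho was 0.72. Values this high are the best of 8843 over 10 points and carry no test.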

How the data were processed

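The submitters' processing notes name STAR, HTSeq and DESeq2 and the build GRCm38 (mm10); versions and the gene annotation are not given in the sources used here. The deposited values are scores, here called normalized counts: the authors divided counts per gene by size factors and rounded to whole numbers. Libraries came from 50 ng of RNA without strand information, as 75-base paired reads.

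Size factors recomputed from the table lay within 0.126% of 1, so the values were used as deposited. In the table, 27 gene names had been turned into numbers. Identical values made up at most 0.554% of any pair of libraries. A gene was tested if 2 or more libraries reached 10 normalized counts. The tests used limma 3.58.1 (R 4.3.3) on log2(value + 1), all 4 groups in 1 fit, with a variance trend (6 residual and 5.48 prior degrees of freedom), in 8 contrasts. Tests were two-sided, with Benjamini-Hochberg adjustment over all tested genes of a contrast and a threshold of 0.05. A fold change on this scale understates that of low genes. The script was tested on simulated data. The 6 correlations used 100000 permutations, exact below 10 libraries. Exon lengths are unions of exons in GENCODE vM21 and promoters are from RefSeq. Other steps ran in Python 3.11.15 (scipy 1.17.1, pandas 2.3.3, numpy 2.4.6), with plots from matplotlib 3.10.9.

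The members, gene lists and comparisons were chosen with earlier results of these data known, so no list is independent evidence. Named genes are the 10 members, up to 3 genes of each list with the smallest p or past the threshold, and the 3 genes most like each member in r. Tox2, Cd8a, Malat1 and the ratios were added for their bearing on a member. Alternatives were another pseudocount, filter, scaling, variance trend or covariate, fewer libraries, the title number as a block and leaving out each library. For libraries with the same title number in different groups, the correlations of deviations from group means ran from -0.27 to 0.18, so the numbers were not taken to pair the libraries. One detail of the strain is not reported here.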

Additional observations from a re-analysis of the deposited data

How the results depend on the processing

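The count of members past the adjusted threshold was 0 in all 8 comparisons and stayed 0 in all 152 alternative fits (1520 member tests); the smallest adjusted p was 0.22, for Batf with CD40 over control without CD40 3. With the replicate block, the title number as a block, 0 of 10 members passed for CD40 and for the combination over control, and 0 for the combination over CD40. Of 780 values of named member results under alternatives, 763 kept their direction and side of the threshold and 17 changed sign. Over all genes, alternatives called 0 to 36 genes, the 36 without CSF1Ri+CD40 1 in the combination over control.

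For CSF1Ri over control, rescaling to summed CD3 transcripts gave log2 differences of -0.15 for Tbx21, -0.13 for Eomes, -0.0596 for Bhlhe40, -0.17 for Tox and -0.0736 for Id3, and a pseudocount of 10 gave -0.0756 for Tbx21. Tcf7 became 0.092 over the 7 libraries without Y-linked transcripts. Leaving out 1 library at a time gave, for CSF1Ri over control, ranges of -1.41 to 1.16 for Tbx21, -0.28 to 0.72 for Eomes, -0.10 to 0.48 for Tox and -0.56 to 0.092 for Tcf7. The ranges were -1.10 to 1.47 (Tbx21) and -1.35 to 0.23 (Lef1) for CD40, and -0.68 to 1.89 (Tbx21) and -0.42 to 0.0469 (Lef1) for the combination over control. With 1 library left out, Tbx21 was negative without Control 2. The lower end for Lef1 with CD40 is without CD40 3. The causes of these changes, beyond fewer samples, were not tested.

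The correlation of Tcf7 and Lef1 fell to 0.36 over the 7 libraries and ran from 0.63 (without CD40 2) to 0.89 (without CSF1Ri+CD40 3) when 1 library was left out; its adjusted p was above 0.05 in 8 of those 10 fits. Id2 and Id3 gave -0.19 on the CD3 scale and -0.15 to 0.61 with 1 library left out, Batf and Bhlhe40 -0.31 on the CD3 scale, and Prdm1 and Tcf7 -0.0209 over the 7 libraries.

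With 2 or 3 pools a group and unknown depth, intervals are wide: that of Tbx21 in the combination over control ran from -1.75 to 3.68 on the log2 scale. Where 1 library is left in a group, its spread was taken from the other groups.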
